A study of Mus musculus with 6 samples.

Results

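Of the genes described here 7 are hosts of small nucleolar RNAs (Gas5, Snhg1, Snhg3, Snhg5, Snhg6, Snhg8 and Snhg12), and the others are the long nuclear RNAs Malat1 and Neat1. These 9 noncoding genes were taken by name from a microarray study of mouse leukaemia, and each was read on 1 probe set, the one with the highest mean over the 6 arrays among probe sets that carry a single gene symbol. By that rule 7 of the 9 were measured, out of 22180 genes in all. Gas5 and Snhg8 were not, because their probe sets are shared in the annotation with a microRNA and with a small nucleolar RNA, and those shared probe sets are given separately below.

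There were 3 arrays of MLL-AF9 leukaemia cells that carried an Evi1 transgene (Evi1 Tg 1, 2 and 3), which were set against 3 of MLL-AF9 leukaemia cells without it (WT 1, 2 and 3). All 6 samples carried the MLL-AF9 fusion, a driver of acute myeloid leukaemia, on the C57BL/6J background, were untreated, and were unfractionated green fluorescent cells collected by a sorter. The promoter of the transgene, the age of the animals and the number of animals behind each array are not stated in the labels. The p-values therefore reflect the spread between these samples alone, which may be technical. Evi1 is a zinc finger transcription factor encoded at the locus Mecom.

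Small nucleolar RNAs (snoRNAs) guide chemical modification and cleavage of ribosomal RNA, those of the C/D box class methylation and those of the H/ACA box class the conversion of uridine to pseudouridine. In vertebrates most of them are cut from introns. Noncoding hosts of this kind have spliced exons with little or no coding capacity, often start with the pyrimidine-rich sequence typical of genes of the translation apparatus, and are in many cases degraded in the cytoplasm by nonsense-mediated decay, while the snoRNA in the intron is kept. Malat1 lies in nuclear speckles, which hold splicing factors, and Neat1 is the scaffold of the paraspeckles, nuclear bodies that retain RNA and RNA-binding proteins.

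The transgene's gene, Mecom, was not above background. Its brighter probe set read 40.7, 37.7 and 37.5 on the Evi1 Tg arrays, against 39.4, 37.4 and 34.1 on the WT arrays, and the other read 30.0, 29.8 and 30.5 in Evi1 Tg, against 32.0, 31.8 and 29.6 in WT. Background was taken as an intensity of 73.9, the 90th percentile of 69 measured genes silent in blood cells. Whether these probes lie within the transgene is not known here, and the groups rest on the labels alone. As a check of the labelled cell type, 12 of 12 myeloid leukaemia markers lay above background, while 0 of 8 T and NK cell, 0 of 5 B cell and 0 of 2 erythroid markers were. Within the myeloid list Mpo, the myeloperoxidase of granules, read 1192, 863 and 525 in Evi1 Tg, against 92.7, 68.1 and 252 in WT, and the stem cell factor receptor Kit read 211, 219 and 316 in Evi1 Tg, against 90.6, 113 and 112 in WT. The groups did not overlap for either (log2 differences 2.80 and 1.22, limma adjusted p = 0.139 and 0.0772). Of the 12 myeloid markers 7 lay above 0 and 5 below. The groups did not overlap for 4 with Evi1 Tg above and for 2 with it below, beside 19.3% of genes above background in either direction. The 2 below were Csf3r (log2 difference -0.55, limma adjusted p = 0.367) and Ptprc (-0.39, limma adjusted p = 0.418). Of the 5 megakaryocyte markers 4 were measured, 3 of them above background, and their summed intensity was 257, 339 and 310 in Evi1 Tg, against 478, 603 and 254 in WT. Of 8 stromal and endothelial markers 3 were above background.

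The array WT 3 stood apart from WT 1 and WT 2 in cell division genes. For 16 measured cell division genes, each centred on its own 6-array mean, the median deviation was 0.25, 0.28 and 0.35 on the log2 scale on the Evi1 Tg arrays, against -0.55, -0.66 and 0.33 in WT 1, WT 2 and WT 3. Among the 9987 genes above background WT 3 was the highest array for 31.8% and the lowest for 13.2% in the values as deposited. These shares depend on scaling. They were 24.3% and 17.3% with quantile normalization, 20.5% and 20.8% with quantile normalization over these genes alone, and 40.7% and 8.52% with median centring. The members, the snoRNAs and the genes of each list that passed the test without WT 3 are therefore given with and without it.

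Promoters of 4 measured snoRNA hosts are shown because these genes had the same order of arrays, with WT 1 and WT 2 lowest and WT 3 highest, and that of Malat1 because it had not. The sequences are those of RefSeq for GRCm38.p6, which held 7 of the 9 genes, and run from 250 bases before to 50 bases after the annotated start. They lie at chr19:8723237-8723536 on the plus strand (Snhg1), chr4:132353637-132353936 on the minus strand (Snhg3), chr9:88522848-88523147 on the minus strand (Snhg5), chr4:132308428-132308727 on the plus strand (Snhg12) and chr19:5802623-5802922 on the minus strand (Malat1). Capitals mark the motif TATAAA on either strand, and a run of 5 or more pyrimidines that opens with C within 10 bases of the start.
Snhg1: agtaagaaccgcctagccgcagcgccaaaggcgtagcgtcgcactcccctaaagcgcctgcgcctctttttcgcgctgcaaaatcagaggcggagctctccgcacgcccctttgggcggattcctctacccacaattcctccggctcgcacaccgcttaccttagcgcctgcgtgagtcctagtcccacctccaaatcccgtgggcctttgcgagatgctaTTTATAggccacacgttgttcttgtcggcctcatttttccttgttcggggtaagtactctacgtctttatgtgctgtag
Snhg3: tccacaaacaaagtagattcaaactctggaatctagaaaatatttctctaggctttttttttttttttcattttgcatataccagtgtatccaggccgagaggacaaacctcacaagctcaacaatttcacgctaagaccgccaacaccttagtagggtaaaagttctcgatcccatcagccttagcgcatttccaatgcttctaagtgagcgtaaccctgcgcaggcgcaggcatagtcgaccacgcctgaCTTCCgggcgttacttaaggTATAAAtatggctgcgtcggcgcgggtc
Snhg5: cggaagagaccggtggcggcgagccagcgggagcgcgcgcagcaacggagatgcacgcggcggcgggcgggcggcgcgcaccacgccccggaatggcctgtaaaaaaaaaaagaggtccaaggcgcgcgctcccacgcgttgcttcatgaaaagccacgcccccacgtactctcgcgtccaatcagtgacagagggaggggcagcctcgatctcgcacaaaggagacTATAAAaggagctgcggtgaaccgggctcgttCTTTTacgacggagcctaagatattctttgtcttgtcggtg
Snhg12: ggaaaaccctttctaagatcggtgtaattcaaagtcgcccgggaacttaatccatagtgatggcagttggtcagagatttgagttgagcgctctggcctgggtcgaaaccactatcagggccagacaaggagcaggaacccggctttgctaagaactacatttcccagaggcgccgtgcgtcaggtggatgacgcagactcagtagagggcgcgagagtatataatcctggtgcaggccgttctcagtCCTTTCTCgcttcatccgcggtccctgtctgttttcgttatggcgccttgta
Malat1: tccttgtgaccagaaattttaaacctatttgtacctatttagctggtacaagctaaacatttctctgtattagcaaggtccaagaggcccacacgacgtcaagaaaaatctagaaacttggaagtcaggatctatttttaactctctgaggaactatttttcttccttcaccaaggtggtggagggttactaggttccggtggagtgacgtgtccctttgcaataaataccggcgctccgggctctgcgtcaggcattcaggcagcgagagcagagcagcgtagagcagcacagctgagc

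TATAAA was found in the windows of Snhg1 (on the minus strand), Snhg3 and Snhg5, and in 13.6% of 32817 promoters of the same length. Its first base lay at -29 from the annotated start for Snhg1 and -23 for Snhg5, but at 22, after the start, for Snhg3. The pyrimidine run was found for Snhg3 (CTTCC), Snhg5 (CTTTT) and Snhg12 (CCTTTCTC, 8 bases), and in 29.0% of all promoters. Neither was found for Malat1. The motif CACGTG, an E-box, was in none of the 5 windows and in 7.15% of all promoters, and CCAAT on either strand was in those of Snhg3 and Snhg5 and in 37.4%. These matches describe letters in a window and say nothing of binding.

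None of the 7 measured noncoding RNAs passed the test of Evi1 Tg against WT in limma with Benjamini-Hochberg adjustment over all genes, where 0.113% of 22180 genes were called, 0.00902% higher and 0.104% lower in Evi1 Tg. None reached an unadjusted limma p under 0.05 either, against 10.3% of all genes. The groups overlapped for each of the 7, whereas they did not overlap for 14.6% of all genes (7.08% with Evi1 Tg above and 7.47% with it below) and for 19.3% of genes above background. The median difference (Evi1 Tg minus WT, log2 intensity) was 0.28 over the 5 measured snoRNA hosts and -0.19 over Malat1 and Neat1, beside 0.012 over all genes. Fewer cells that express a gene and less RNA per cell cannot be told apart in these samples.

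**Figure D1:**
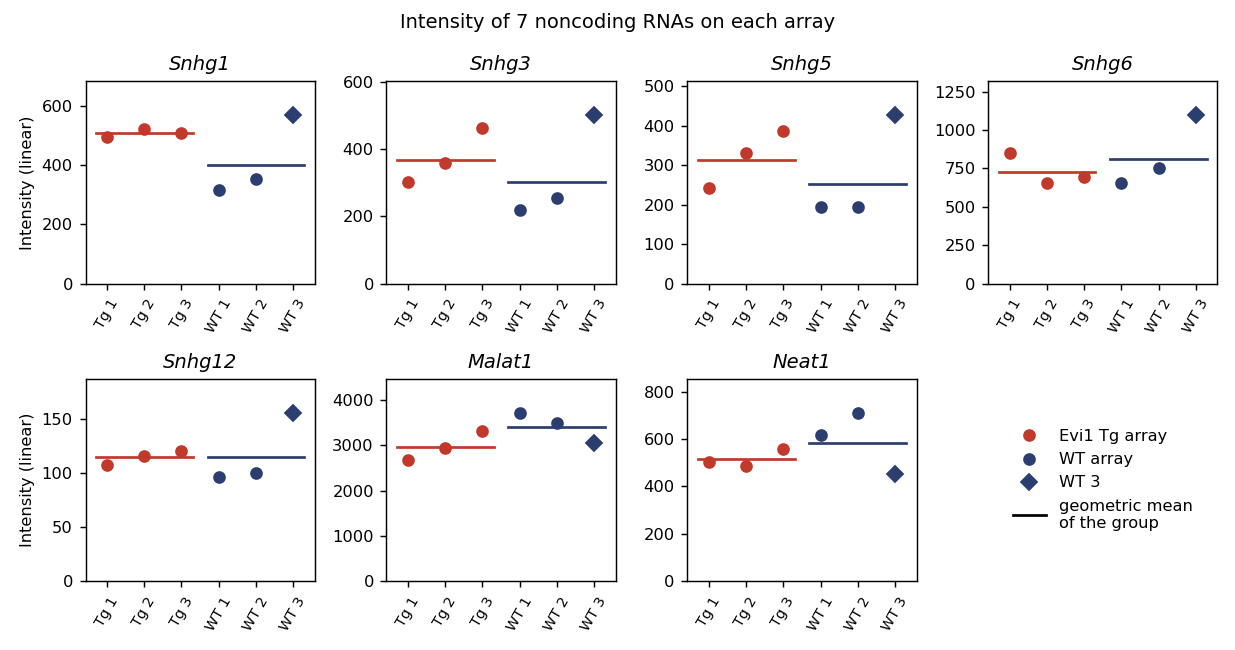
Intensity (linear scale, axes from 0) of the 7 measured noncoding RNAs on each array, with Evi1 Tg arrays in red on the left, WT arrays in blue on the right, WT 3 as a diamond and the geometric mean of each group as a line. WT 3 is the highest array for Snhg1, Snhg3, Snhg5, Snhg6 and Snhg12 and the lowest for Neat1.

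Among the snoRNA hosts, Snhg1 has 8 snoRNA genes inside it in RefSeq, among them the C/D box snoRNA Snord22. It read 494, 522 and 509 on the Evi1 Tg arrays, against 317, 352 and 569 on the WT arrays. The Evi1 Tg arrays lay close together, above WT 1 and WT 2 and below WT 3. In log2 intensity the groups of 3 differed by 0.35, with a 95% interval of -0.14 to 0.84 (adjusted p = 0.649 in limma, SE 0.209). Its neighbours on chromosome 19 are Slc3a2, the heavy chain of amino acid transporters, and Wdr74, a factor of ribosome assembly. Wdr74 also had Evi1 Tg above WT 1 and WT 2, with WT 3 just below Evi1 Tg 3, and read 776, 767 and 805 in Evi1 Tg, against 450, 578 and 800 in WT (log2 difference 0.40, adjusted p = 0.553 in limma, SE 0.195). Slc3a2 did not, with 2130, 1918 and 2072 in Evi1 Tg, against 2361, 2421 and 1956 in WT.

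Snhg3 is the host of Snora73a and Snora73b, the U17 snoRNAs, which act in cleavage of the precursor of ribosomal RNA. It read 302, 358 and 462 on the Evi1 Tg arrays, against 218, 255 and 502 on the WT arrays. Evi1 Tg again lay between WT 3 and the other WT arrays (log2 difference 0.28, SE 0.317, 95% interval -0.47 to 1.03, limma adjusted p = 0.857). Its neighbour on chromosome 4, Rcc1, the nucleotide exchange factor of Ran, read 278, 345 and 324 in Evi1 Tg, against 176, 151 and 360 in WT, so that WT 3 was the highest array there too (log2 difference 0.57, adjusted p = 0.602 in limma, SE 0.307). The neighbour on the other side, Phactr4, read 184, 171 and 172 in Evi1 Tg, against 155, 169 and 143 in WT, with groups that did not overlap and a log2 difference of 0.18 (adjusted p = 0.589 in limma, SE 0.0929).

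Snhg5, with 2 snoRNA genes inside it in RefSeq and neither on a probe set of its own, read 242, 331 and 388 on the Evi1 Tg arrays, against 195, 195 and 428 on the WT arrays. WT 1 and WT 2 were the lowest of the 6 arrays and nearly equal (log2 difference 0.31, SE 0.330, 95% interval -0.47 to 1.09, limma adjusted p = 0.840). On either side of it lie Syncrip, an RNA-binding protein, with a log2 difference of 0.16, and the zinc finger gene Zfp949, which read 83.5, 82.0 and 93.4 in Evi1 Tg, against 98.99, 98.5 and 103 in WT (log2 difference -0.22, limma adjusted p = 0.447).

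Snhg12, the host of Snora16a, Snora44, Snora61 and Snord99, read 108, 116 and 121 in Evi1 Tg, against 96.9, 100.3 and 156 in WT. The order of arrays was that of Snhg5, but the group means were nearly the same (log2 difference -0.0036, SE 0.185, 95% interval -0.44 to 0.43, limma adjusted p = 0.998). Its sign was positive with quantile normalization (0.0186). Its neighbour Trnau1ap, a factor of selenocysteine incorporation, had a log2 difference of 0.02.

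Snhg6, the host of the C/D box snoRNA Snord87, did not share that order among the Evi1 Tg arrays. It read 853, 655 and 693 in Evi1 Tg, against 654, 751 and 1098 in WT. WT 3 stood above the other 5 arrays, which mixed (log2 difference -0.16, SE 0.202, 95% interval -0.64 to 0.32, limma adjusted p = 0.873). It overlaps the protein-coding gene Mcmdc2 on chromosome 1 in the RefSeq map, which was below background in both groups, with geometric means of 46.1 in Evi1 Tg and 42.9 in WT. Its neighbours did not pass either. The kinase gene Sgk3 read 892, 1123 and 696 in Evi1 Tg, against 569, 668 and 710.4 in WT (log2 difference 0.46, limma adjusted p = 0.450). Tcf24 read 81.8, 84.2 and 78.0 in Evi1 Tg, against 90.1, 187 and 125 in WT (log2 difference -0.66, limma adjusted p = 0.415).

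WT 3 was also the highest array on the shared probe sets of the hosts that the rule left out. The probe set annotated to Gas5 and Mir5117 read 404, 428 and 400.5 on the Evi1 Tg arrays, against 351, 304 and 617 on the WT arrays. The probe set annotated to Snhg8 and Snora24 read 405, 434 and 504 in Evi1 Tg, against 397.5, 311 and 636 in WT. On WT 3 these probe sets were at 1.89 and 1.81 times the geometric mean of WT 1 and WT 2. In a fit over all 34351 deposited probe sets the log2 differences were 0.02 (adjusted p = 0.993 in limma, SE 0.248) and 0.06 (adjusted p = 0.978 in limma, SE 0.251). Which of the paired genes gives the signal cannot be read from these probe sets.

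Malat1, the long RNA of nuclear speckles, read 2682, 2937 and 3315 on the Evi1 Tg arrays, against 3722, 3496 and 3052 on the WT arrays. Evi1 Tg 1 and 2 were the lowest arrays and WT 1 and 2 the highest, with Evi1 Tg 3 and WT 3 between them (log2 difference -0.20, SE 0.116, 95% interval -0.48 to 0.073, limma adjusted p = 0.635). Its second probe set read 1222, 893 and 1117 in Evi1 Tg, against 1816, 1047 and 670 in WT, so that its WT arrays spread far more widely and WT 3 was the lowest of the 6 (log2 difference -0.02, SE 0.341 in the fit over all probe sets, limma adjusted p = 0.996). The probe sets of Malat1 thus disagree on the size of the difference and on the place of WT 3.

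Neat1, the neighbour of Malat1 on chromosome 19, read 505, 487 and 556 on the Evi1 Tg arrays, against 619, 712 and 452 on the WT arrays. Every Evi1 Tg array lay below WT 1 and WT 2 and above WT 3, the reverse of Snhg1 (log2 difference -0.18, SE 0.168, 95% interval -0.58 to 0.22, limma adjusted p = 0.810). The megakaryocyte markers above, with WT 1 and WT 2 high and WT 3 low in summed intensity, had the same order of WT arrays, and their part in the Neat1 values was not tested. Pf4 (155, 208 and 70.5 on WT 1, 2 and 3), Ppbp (168, 229 and 58.7) and Gp9 (98.7, 104 and 61.6) had that order. Itga2b, below background, did not (57.0, 62.5 and 63.7). Frmd8, on the far side of Neat1, read 220, 204 and 234 in Evi1 Tg, against 234, 233 and 213 in WT (log2 difference -0.05, limma adjusted p = 0.923).

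Of 9986 other genes above background, those whose log2 values followed Malat1 most closely over the 6 arrays were Diaph2, Gpnmb and Clptm1l, with Pearson r of 0.993, 0.988 and 0.985. Those that followed Neat1 most closely were Rgs9, Cotl1 and Tatdn3, with r of 0.997, 0.989 and 0.989. With 6 arrays and so many genes these are descriptions only, and 13 genes reached an r of 0.95 with Malat1 and 41 with Neat1.

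Without WT 3, 1 of the 7 measured members was called. Snhg1 was higher in Evi1 Tg by 0.61 on the log2 scale (SE 0.0933, 3 Evi1 Tg and 2 WT arrays, limma adjusted p = 0.0353), where 1.73% of all genes were called higher, 0.78% lower and 2.51% in either direction. The differences were 0.64 for Snhg3 (adjusted p = 0.142 in limma, SE 0.184) and 0.69 for Snhg5 (adjusted p = 0.131 in limma, SE 0.192), which did not pass. Snhg12 had a difference of 0.22 (limma adjusted p = 0.315) and Snhg6 one of 0.06 (limma adjusted p = 0.920). Malat1 had a difference of -0.28 on its brighter probe set (adjusted p = 0.293 in limma, SE 0.115) and Neat1 one of -0.37 (adjusted p = 0.155 in limma, SE 0.109). On the second probe set of Malat1 Evi1 Tg 1 and 3 (1222 and 1117) lay above WT 2 (1047), so those groups overlapped without WT 3 too. The groups no longer overlapped for 6 of the 7, with Evi1 Tg above for Snhg1, Snhg3, Snhg5 and Snhg12 and below for Malat1 and Neat1, beside 17.7% of all genes with Evi1 Tg above and 14.7% below. Among genes above background, as all 7 members are, the groups lay apart with Evi1 Tg above for 27.7% and below for 18.4%, and 3.79% were called higher. In the same arrays 15 of 16 cell division genes were called higher, with a median difference of 0.93. With all 6 arrays 0 of the 16 were called and the median difference was 0.61. WT 3 was high for these genes, as given above, so leaving it out favours their calls. Without WT 3 Mpo (3.36, limma adjusted p = 0.0175) and Kit (1.27, limma adjusted p = 0.0364) were called higher too. The part of the cell division genes, Mpo and Kit in the values of the snoRNA hosts was not tested. Of 17 measured neighbours 1, Rcc1 beside Snhg3, was called (0.95, limma adjusted p = 0.0273). WT 3 was the highest array for Snhg1, Snhg3, Snhg5 and Snhg12 and the lowest for Neat1, and its rank was examined after seeing the data. Leaving it out favours the separations and the Snhg1 call above, which are therefore no separate evidence of a difference. With WT 1 or WT 2 left out instead, Snhg1 had differences of 0.18 and 0.26 (limma adjusted p = 0.908 and 0.839), and 0 members were called.

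**Figure D2:**
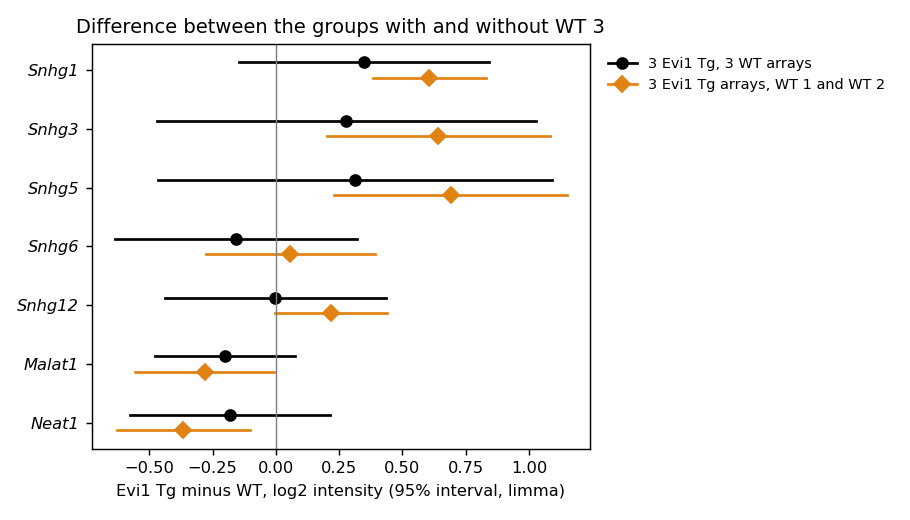
Difference between Evi1 Tg and WT in log2 intensity with its 95% interval from limma, for all 6 arrays (black circles) and without WT 3 (orange diamonds). With all arrays every interval spans 0, and without WT 3 those of Snhg1 (0.38 to 0.83), Snhg3 (0.20 to 1.08), Snhg5 (0.23 to 1.15), Malat1 and Neat1 do not. WT 3 is the highest WT array for these hosts and the lowest for Malat1 and Neat1, so leaving it out moves each of these differences away from 0. Malat1 is shown on its brighter probe set only.

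The snoRNAs inside the members did not follow their measured hosts on WT 3, and Gas5, the host of Snord47, has no measured value. By gene position in RefSeq 9 snoRNAs with a probe set of their own lay inside 5 of the members, and 0 of 9 were called (lowest limma adjusted p = 0.628). Their differences ran from -0.46 for Snora44 to 0.33 for Snord22. Without WT 3 again 0 of 9 were called, and the median difference was -0.11, against 0.074 with all arrays. In that fit 2 of the 9 had an unadjusted limma p under 0.05, as did 3075 of 9987 genes above background. On WT 3, where every measured host was the highest of the 6 arrays, 8 of the 9 snoRNAs were the lowest, the exception being Snora44, which was lowest on Evi1 Tg 3. The same counts were found with quantile normalization and with median centring.

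Snord22, a C/D box snoRNA, read 4006, 4703 and 3961 on the Evi1 Tg arrays, against 4557, 3607 and 2276 on the WT arrays. WT 3 held 0.561 times the geometric mean of WT 1 and WT 2 for this snoRNA and 1.70 times for its host Snhg1. Snord99 read 2072, 2204 and 2310 in Evi1 Tg, against 2699, 2776 and 1415 in WT, or 0.517 times on WT 3 where its host Snhg12 was at 1.58 times. In both pairs the snoRNA was low on the array on which the host was high. That is 1 array, on which snoRNAs beyond these hosts were low too, as given below, and the cause was not tested.

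Snora73a and Snora73b were at 0.742 and 0.735 times on WT 3, where Snhg3 was at 2.13 times. Snora73a read 690, 704 and 626 in Evi1 Tg, against 646, 647 and 479 in WT, with WT 3 alone standing off from the other arrays. Snord87 read 2956, 2583 and 2635 in Evi1 Tg, against 2933, 2943 and 1998 in WT (0.680 times on WT 3, where Snhg6 was at 1.57 times). Snord47, which lies inside Gas5, read 2938, 2683 and 3047 in Evi1 Tg, against 3813, 2589 and 1808 in WT.

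Snora16a, Snora44 and Snora61, the H/ACA box snoRNAs of Snhg12, were at 0.555, 0.568 and 0.684 times on WT 3. Snora44 read 541, 454 and 374 on the Evi1 Tg arrays, against 648, 863 and 425 on the WT arrays, with a log2 difference of -0.46 (adjusted p = 0.628 in limma, SE 0.261). Snora16a read 622, 855 and 913 in Evi1 Tg, against 692, 927 and 445 in WT, and the groups overlapped for each of the 9 snoRNAs.

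**Figure D3:**
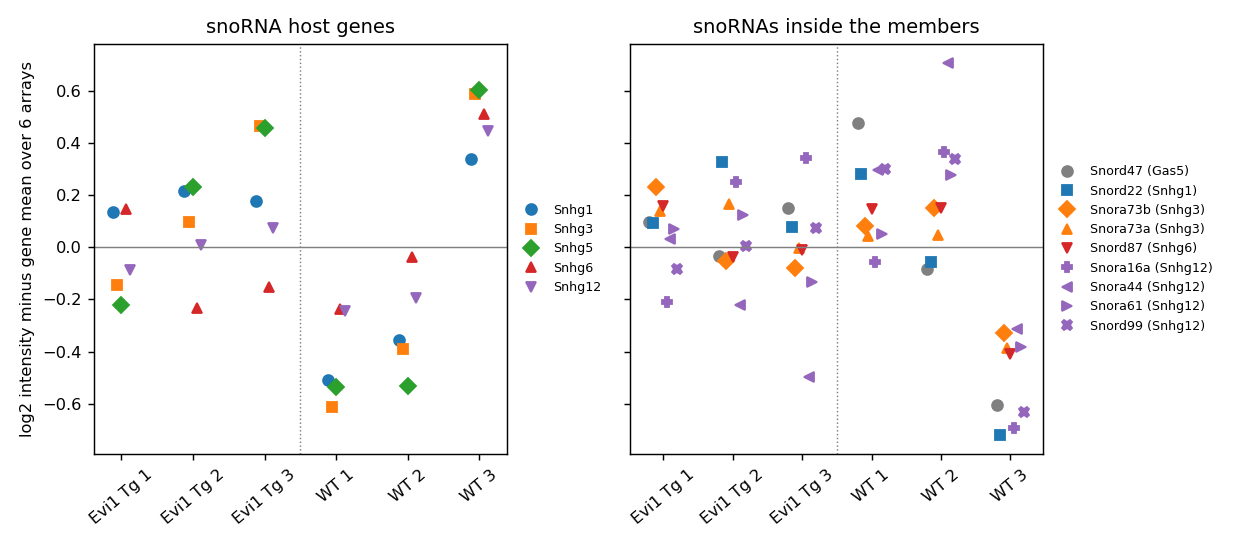
Deviation of each gene's log2 intensity from its mean over the 6 arrays, for the 5 measured snoRNA hosts (left) and the 9 snoRNAs that lie inside members (right, host in parentheses and matching colour, grey for Gas5, which has no measured host value), with Evi1 Tg arrays left of the dotted line and WT arrays right of it. On WT 3 the hosts lie between 0.34 and 0.60 and the snoRNAs between -0.72 and -0.32.

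The low snoRNA signal on WT 3 was not limited to the snoRNAs of these hosts. Of the 58 other snoRNAs above background WT 3 was the lowest array for 44 (75.9%) and the highest for 0, beside 13.2% and 31.8% of all genes above background. Their median deviation was 0.078, 0.12 and 0.076 on the Evi1 Tg arrays, against 0.19, 0.015 and -0.48 on the WT arrays. Among all 80 measured snoRNAs 0 were called (lowest limma adjusted p = 0.178), and 11 had an unadjusted limma p under 0.05, as did 10.3% of all genes. The median difference between the groups was 0.14, with 60 above and 20 below 0, where 53.5% of all genes lay above 0. Without WT 3 that median of differences was -0.03 and 2 of the 80 (2.5%) were called, both lower in Evi1 Tg and named for that call. In that fit 0.78% of all genes and 1.47% of genes above background were called lower, and 2.51% of all genes in either direction. Snord89 read 226, 188 and 228 in Evi1 Tg, against 496, 479.7 and 302 in WT (-1.20 without WT 3, limma adjusted p = 0.0175). Snora62 read 770.3, 784 and 714 in Evi1 Tg, against 1091, 1222 and 611 in WT (-0.61 without WT 3, limma adjusted p = 0.0377). With all arrays the differences were -0.96 for Snord89 (limma adjusted p = 0.178) and -0.31 for Snora62 (limma adjusted p = 0.772). WT 3 was the lowest WT array for both, and for Snora62 it lay below every Evi1 Tg array. Leaving out WT 3 favours calls of lower in Evi1 Tg, so these calls are no separate evidence of a difference.

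**Figure D4:**
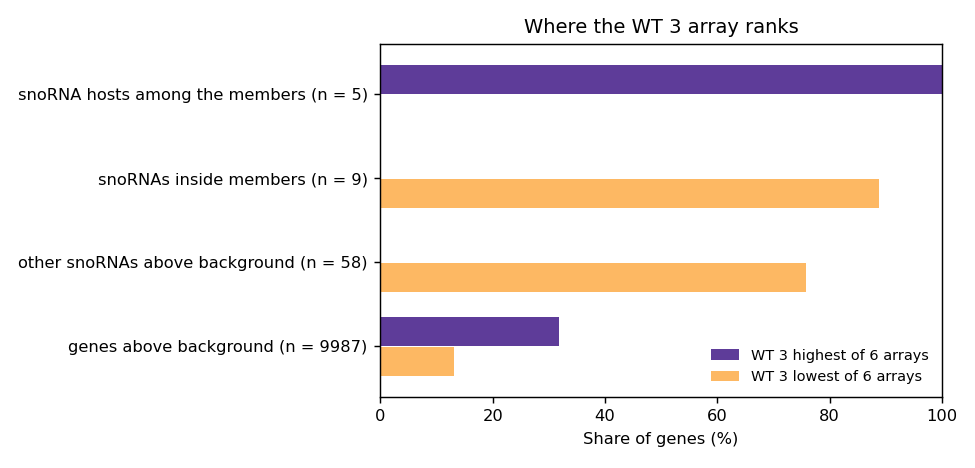
Share of genes (%) for which WT 3 was the highest (purple) or the lowest (yellow) of the 6 arrays, for the 5 measured snoRNA hosts, the 9 snoRNAs inside members, the 58 other snoRNAs above background and the 9987 genes above background. WT 3 was highest for 5 of 5 hosts and lowest for 8 of 9 snoRNAs inside members.

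Other noncoding snoRNA hosts lay on both sides of 0. Of 14 listed 13 were measured, 0 passed the test, 7 lay above and 6 below 0, and the median difference was 0.050. WT 3 was the highest array for 4 of the 13 and the lowest for 2. Snhg11 read 107, 98.4 and 149.5 on the Evi1 Tg arrays, against 232, 422 and 192 on the WT arrays, with groups that did not overlap (log2 difference -1.19, adjusted p = 0.240 in limma, SE 0.302). Zfas1, the host of the Snord12 family, read 611, 758 and 702 in Evi1 Tg, against 459.9, 444 and 617 in WT (log2 difference 0.46, adjusted p = 0.356 in limma, SE 0.151). Snhg7 had a log2 difference of 0.36 (adjusted p = 0.595 in limma, SE 0.194).

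Of 23 other long or abundant noncoding RNAs 18 were measured and 0 passed, with 9 above and 9 below 0. Lncpint, a transcript induced by p53, read 60.7, 74.8 and 73.0 on the Evi1 Tg arrays, against 123, 139.7 and 97.4 on the WT arrays. Trp53cor1, known as lincRNA-p21 and also induced by p53, read 160.3, 148 and 211 in Evi1 Tg, against 266, 257 and 279 in WT. In both genes all Evi1 Tg arrays lay below all WT arrays, with log2 differences of -0.78 (adjusted p = 0.164 in limma, SE 0.153) and -0.65 (adjusted p = 0.194 in limma, SE 0.140). Without WT 3 Lncpint was called lower (-0.92, limma adjusted p = 0.0282), and Trp53cor1 was at -0.61 (limma adjusted p = 0.111).

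None of the genes whose products make or carry snoRNAs passed the test with all 6 arrays. All 17 of the 17 measured snoRNP proteins and assembly factors lay above 0, with a median of 0.19, where 53.5% of all genes did, and 0 passed. Naf1, an assembly factor of H/ACA box particles, had a log2 difference of 0.45 (adjusted p = 0.270 in limma, SE 0.126), Ruvbl1, a chaperone subunit, 0.44 (adjusted p = 0.369 in limma, SE 0.149), and Nop56, a core protein of C/D box particles, 0.36 (adjusted p = 0.439 in limma, SE 0.140). The median deviation of the list was 0.062, 0.17 and 0.091 in Evi1 Tg, against -0.29, -0.25 and 0.18 in WT 1, 2 and 3, and WT 3 was the highest array for 7 of the 17. Of 16 measured protein-coding snoRNA hosts 13 lay above 0 and 0 passed, with a median of 0.089. Without WT 3, 1 of the 17 snoRNP genes was called, Nop58, the partner of Nop56, named for that call (0.49, limma adjusted p = 0.0476), and of the protein-coding hosts 1, Rcc1.

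The lists that bear on the fate of host transcripts had 0 calls with all 6 arrays. Of 9 measured nonsense-mediated decay factors 7 lay above 0 (median 0.082). Among them Upf2 read 338, 344 and 341 on the Evi1 Tg arrays, against 393, 380.4 and 483 on the WT arrays (log2 difference -0.29, adjusted p = 0.420 in limma, SE 0.108), and Rbm8a, a subunit of the exon junction complex, had a difference of 0.30 (adjusted p = 0.359 in limma, SE 0.0997). Of 15 measured genes listed for mRNAs that begin with a terminal oligopyrimidine, mainly translation factors, 9 lay above 0 (median 0.029). Nap1l1, which is not itself a translation factor, was at 0.55 (adjusted p = 0.415 in limma, SE 0.202). Of 11 measured genes of the glucocorticoid receptor, which Gas5 can bind, and its targets 6 lay above 0 (median 0.026). Ddit4 had a difference of -0.74 in that list (adjusted p = 0.0595 in limma, SE 0.0932). Without WT 3 Nap1l1 was called higher (0.79, limma adjusted p = 0.0249) and Ddit4 lower (-0.79, limma adjusted p = 0.0241), while 0 of the 9 decay factors were called.

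Proteins of the bodies that Neat1 and Malat1 occupy also had 0 calls with all 6 arrays. Of 7 measured paraspeckle proteins 6 lay above 0, with a median of 0.22, while Neat1 itself lay below 0. Nono read 1624, 1777 and 1790.2 on the Evi1 Tg arrays, against 1252, 1175 and 1788 on the WT arrays (log2 difference 0.32, adjusted p = 0.567 in limma, SE 0.162), and was called higher without WT 3 (0.51, limma adjusted p = 0.0490). Of 11 measured nuclear speckle proteins 6 lay above 0 (median 0.021), and WT 3 was the highest array for 8 of the 11, beside 31.8% of genes above background. Clk4, a kinase of splicing factors, read 462, 459 and 544 in Evi1 Tg, against 645, 560.4 and 669 in WT (log2 difference -0.36, adjusted p = 0.325 in limma, SE 0.110), and Srrm1, a splicing co-activator, had a difference of 0.32 (adjusted p = 0.333 in limma, SE 0.101).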

How the data were processed

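Gene expression was measured on 6 arrays of sorted mouse leukaemia cells, 3 Evi1 Tg and 3 WT, with RNA labelled by the GeneChip WT PLUS reagents, per the labels' protocols. A single table of intensity values was deposited by the authors for 34351 probe sets; the values are linear and all positive; background correction, normalization and summarisation by the authors are not given in the sources used. Median intensities per array lay between 51.6 and 55.4. Probe sets were named through the platform annotation, in which 23521 had 1 symbol, 1814 several and 9016 none, and checked through Entrez identifiers in RefSeq for GRCm38.p6 (0 renamed). For 1082 genes with several probe sets the one with the highest mean was kept, leaving 22180 genes, of which 9987 lay above background.

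Without a pseudocount or a filter on dim genes, log2 intensities were fitted with limma 3.58.1 (lmFit, then eBayes; R 4.3.3), which compared Evi1 Tg with WT. A gene was called at a p under 0.05 after Benjamini-Hochberg adjustment over the 22180 genes. SE is the moderated standard error. The procedure was tested on simulated data. Figures were drawn with matplotlib 3.10.9. The number of arrays limits precision, and the smallest two-sided p of an exact permutation test is 0.10 at 3 arrays per group. The labels do not state whether replicate numbers pair the arrays. Deviations from group means of same-numbered arrays correlated at 0.25, -0.28 and -0.0026. These values cannot decide it, because differently numbered arrays were not compared.

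The members and gene lists were chosen with earlier results of these data known. Named genes were Mecom, the members, up to 3 genes per list by smallest p, nearest RefSeq neighbours, snoRNAs inside members, and the 3 genes most like Malat1 and Neat1; genes called without WT 3 (Nop58, Snord89 and Snora62 among them) and Snhg6's overlapping gene were added after their values were seen. The rank of WT 3, the counts for all snoRNAs and the shared probe sets were examined after seeing the data. Alternatives were quantile normalization, median centring, log2(value + 16), dim genes left out, trend and robust settings, weights per array, the replicate number as a block, probe sets averaged per gene, every probe set with 1 symbol, each array left out and, added later, every deposited probe set.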

Additional observations from a re-analysis of the deposited data

How the results depend on the processing

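The 7 members gave 0 calls in 15 of 16 alternatives and 0 to 1 over the 6 that leave out an array, the 1 being Snhg1 without WT 3. With the replicate block, 0 members and 9 genes were called, and the median difference of the snoRNA hosts was 0.28. The block lowered the SE for Snhg3 (to 0.150) and Snhg5 (to 0.183), as for Snhg1 and Snhg12. It raised the SE for Snhg6, Malat1 and Neat1. Whether same-numbered arrays are pairs is not stated in the labels. Genes called in either direction numbered 25 in the reported fit, 9 with log2(value + 16), 38 with trend and robust settings, 114 with array weights, and 2 to 556 with an array left out (7, 2 and 30 without Evi1 Tg 1, 2 and 3, against 8, 51 and 556 without WT 1, 2 and 3). Snhg12 turned positive with quantile normalization (0.0186), array weights (0.0941), without Evi1 Tg 1 (0.0397) and without WT 3, running from -0.127 to 0.218 over the arrays left out, and Snhg6 with array weights (0.0232) and without WT 3 (-0.317 to 0.0567 over the arrays left out); neither was called, and the cause was not tested. Snhg1, Snhg3, Snhg5, Malat1 and Neat1 kept their sign in all 16 alternatives, with Snhg1 from 0.183 without WT 1 to 0.606 without WT 3, Snhg3 from 0.041 to 0.64 and Snhg5 from 0.122 to 0.691 without the same arrays, Malat1 from -0.293 to -0.111, and Neat1 from -0.37 without WT 3 to -0.04 without WT 2. Several of the 16 could not change a sign. Leaving out dim genes, the trend and robust settings, the replicate block and the fits over every probe set keep each difference as in the reported fit. Averaging probe sets does so for all members but Malat1. The snoRNA host median ran from 0.041 to 0.61. Mecom lay below background, and of the 7 members, all above it, Snhg12 lay nearest to it.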
